A study of Mus musculus with 39 samples.

Results

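Immediate early genes are genes whose transcription rises within minutes of a stimulus, and 10 of them were followed here across every library of a mouse series on glucocorticoids and the transcription factor E47. The members, picked by symbol, were the AP-1 subunit genes Fos, Fosb, Jun and Junb, the AP-1 related factor gene Atf3, the transcription factor genes Egr1 and Myc, and the early response genes Ier2, Ier3 and Btg2. They are 10 of the 45706 genes that all count files share, and each of the 10 had over 3 counts in at least 1 library. The series holds 39 polyA RNA-Seq libraries in 12 groups, all from male C57BL/6 mice aged 10 to 16 weeks on chow. Whole-body knockouts (E47-/-, called E47KO) were set against E47+/+ wildtype littermates in untreated liver (6 E47KO and 5 wildtype libraries), in liver after 3 weeks of corticosterone (Cort, the mouse glucocorticoid) at 100 µg/ml in the drinking water (4 and 4), and after 3 weeks of dexamethasone (Dex, a synthetic glucocorticoid) at 10 µg/ml in liver (3 and 2), in muscle of the quadriceps (3 and 2) and in the white fat of the epididymis (WAT; 2 and 2). A further 3 Albcre/+;E47fl/fl livers (AlbCreE47KO), in which the albumin promoter drives Cre in hepatocytes only, were set against 3 floxed control livers without Cre, 1 of them Alb+/+;E47fl/+ and 2 Alb+/+;E47fl/fl, all taken 1 h after an i.p. injection of 1 mg/kg Dex.

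Immediate early genes need no new protein for their own induction, since the factors that switch them on (SRF with its ternary complex partners, and CREB) are already bound or present and are activated by kinases. Most encode transcription factors or feedback regulators with very unstable mRNAs, so that a pulse decays quickly. In liver they are known to answer to injury, regeneration, hormones, refeeding and the handling of tissue, and the glucocorticoid receptor can both bind AP-1 proteins and induce genes that damp the kinases upstream of them.

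The promoters of 7 members were at hand in the RefSeq promoter sequences of GRCm38.p6. For each member only the first listed promoter was scanned, while the share over all promoters counts every listed one. They are shown because the cAMP response element, the site of CREB and ATF family proteins, is a classical control element of this gene class. Its core TGACG, read on both strands, lay within 250 bases before the start of Fos, Fosb, Junb, Atf3 and Btg2, 5 of the 7, and in 17.8% of 32851 RefSeq mouse promoters. The full palindrome TGACGTCA, which holds that core on each strand, occurred in Btg2 alone of the 7 and in 1.55% of promoters. TATAAA occurred in Fos alone of the 7, and in 12.4% of promoters. In the stretches below, written 5′ to 3′ on the gene's strand, capitals mark these matches. The Fos, Fosb, Junb and Atf3 stretches are the 120 bases that end at the base before the start, and the Btg2 stretch spans 180 to 61 bases before it. The Atf3 stretch lies inside the annotated gene (191170296 to 191218039), so that its start is an internal one.
Fos, chr12:85473770-85473889, plus strand: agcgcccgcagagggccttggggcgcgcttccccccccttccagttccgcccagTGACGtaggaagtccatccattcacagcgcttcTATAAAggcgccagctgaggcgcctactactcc
Fosb, chr7:19310046-19310165, minus strand: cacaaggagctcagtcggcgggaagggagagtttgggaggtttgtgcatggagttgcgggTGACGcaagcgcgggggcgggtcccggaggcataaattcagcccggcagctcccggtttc
Junb, chr8:84978749-84978868, minus strand: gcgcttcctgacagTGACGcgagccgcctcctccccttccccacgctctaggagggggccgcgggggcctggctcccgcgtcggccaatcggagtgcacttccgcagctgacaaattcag
Atf3, chr1:191183334-191183453, minus strand: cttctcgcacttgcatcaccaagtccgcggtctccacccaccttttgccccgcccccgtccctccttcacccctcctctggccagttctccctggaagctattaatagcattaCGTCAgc
Btg2, chr1:134079216-134079335, minus strand: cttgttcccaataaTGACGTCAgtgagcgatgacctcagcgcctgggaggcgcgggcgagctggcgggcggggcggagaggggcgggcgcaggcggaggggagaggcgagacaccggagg

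Other motifs were searched on both strands of the same windows, and the site of SRF was not among them. The SP1 type sequence GGGCGG lay in 6 of the 7 against 32.7% of promoters, and the E-Box CANNTG, the class of site that E47 binds, in 6 of the 7 against 66.2%. The AP-1 site TGANTCA (6.75% of promoters) and the glucocorticoid response core AGAACA (16.1%) matched none of the 7 windows, which says only that these letters are not there. Jun and Ier3 were scanned and held an E-Box and GGGCGG but no TGACG. Egr1, Ier2 and Myc had no sequence used here.

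Library totals ran from 15513941 to 18084510 counts 1 h after Dex, from 17495304 to 21447274 in Dex liver and from 30870655 to 54560884 in the other groups. Albumin (Alb) stood at 52210 CPM or more in every liver library, the adipocyte gene Adipoq at 1389 CPM or more in WAT and the muscle actin gene Acta1 at 23268 CPM or more in muscle. CPM is the count scaled to the library total, with TMM factors over all 39 libraries. Tcf3, the gene that encodes E47, did not differ between genotypes at gene level in any of the 6 comparisons (log2 fold change -0.15 to 0.23, adjusted p of at least 0.822), so that its total count checks nothing about a deletion of E47 exons alone. No vehicle group was sampled at 1 h, and the labels number libraries without saying that each is a separate mouse, so that p-values measure the spread between these libraries. By the labels the 1 h Dex and 3 week livers differ in RNA kit, although the study's methods name a single kit for liver, and the 3 week Dex libraries were made with an unstranded kit. The experiments also differ in feeding and time since handling: after 3 weeks of treatment the mice were killed after a glucose tolerance test, which follows an overnight fast. Treatment and these conditions cannot be told apart in any comparison between experiments below. In whole tissue, fewer cells of a type and less RNA per cell cannot be told apart either.

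In untreated wildtype liver, most of the genes were low. Fos, the partner that gives AP-1 its inducible activity, stood at 0.560, 0.667, 0.588, 0.397 and 0.327 CPM in the 5 libraries. Fosb, its close relative, had 1 to 17 counts a library, and Ier3, which encodes a small regulator of cell survival, stood between 0.481 and 0.896 CPM. On a per-length scale (RPKM, CPM per kilobase of exon) Ier2 led at a mean of 10.7, followed by Myc at 5.73 and Junb at 4.06, and Fosb was last at 0.0278.

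One hour after Dex, 4 of the 10 genes were higher in the floxed control livers than in untreated wildtype livers, namely Fos, Egr1, Jun and Btg2, and the other 6 were not called. Calls were made with the quasi-likelihood F-test of edgeR, Benjamini-Hochberg adjusted over all genes tested, at a threshold of 0.05. In this comparison 20.4% of the 16227 genes tested were called, and in 10.8% every 1 h library lay above every untreated one, which held for the same 4 members. Fos, on chromosome 12 (85473890 to 85477273, plus strand, mm10), stood at 29.9, 17.8 and 2.97 CPM against the 5 untreated values above. All 3 injected livers were above all 5 untreated ones, although they were far apart among themselves. Its log2 fold change was 5.06 ± 0.83 (SE), a 33.5-fold difference, with an adjusted p of 0.000106.

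Egr1, a zinc finger factor of growth and stress signalling, was at 282, 150.4 and 57.2 CPM 1 h after Dex. The 5 untreated wildtype livers held 7.99, 4.52, 2.58, 2.12 and 3.06 CPM. No value of the injected group came near the untreated range, and the log2 fold change was 5.36 ± 0.93 (41.0-fold, adjusted p = 0.000212). Egr1 was thereby the most abundant member per length at this time, at a mean of 36.4 RPKM, ahead of Ier2 at 13.5 and Btg2 at 12.9.

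Jun, the obligate core of most AP-1 dimers (chromosome 4, 95049034 to 95052222, minus strand), was at 44.2, 25.5 and 23.7 CPM against 9.04, 7.96, 11.7, 4.26 and 5.70 CPM. The groups were separate, with a log2 fold change of 2.02 ± 0.39 (adjusted p = 0.000669). Btg2, an antiproliferative cofactor that recruits the CCR4-NOT deadenylase, was at 39.1, 33.5 and 33.4 CPM. These 3 values lay close together, above the untreated 13.3, 9.96, 6.11, 8.45 and 9.95 CPM, and the log2 fold change was 1.90 ± 0.36 (adjusted p = 0.000524). These 4 calls held when each library was left out in turn, the E47fl/+ control included. For the Jun gene the antisense gene Junos lies on the opposite strand, and in the 17 stranded libraries Jun counts on its own strand were 1.05 to 1.15 times the unstranded ones.

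**Figure D1:**
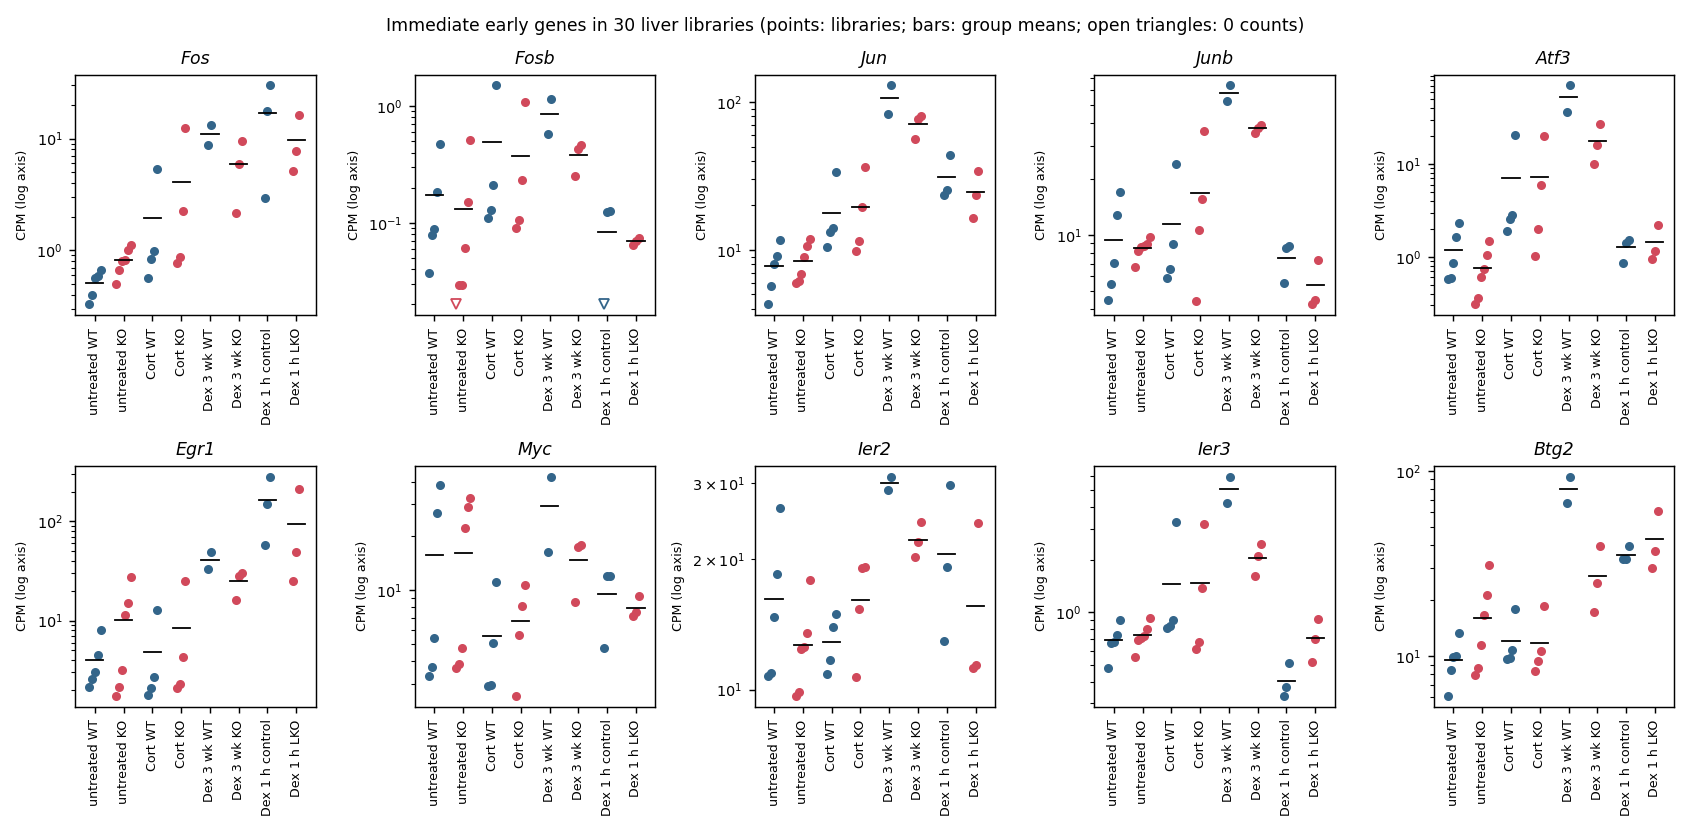
Levels of the 10 genes in each of the 30 liver libraries, in CPM on a log axis, by group, with 1 point per library. By group means Egr1 is highest 1 h after Dex (24.9 to 282 CPM over both genotypes), and Fos is highest in the floxed controls of that experiment alone. Atf3, Junb and Jun are highest after 3 weeks of Dex, and Myc falls into separate levels among untreated livers.

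The other 6 genes gave no call at 1 h. Junb, the AP-1 subunit that often restrains Jun, was at 8.70, 8.47 and 5.50 CPM, inside the untreated range of 4.48 to 17.0. Atf3, a stress-induced repressor of the same family, was at 1.53, 1.40 and 0.865 CPM, also inside the untreated range of 0.583 to 2.30. Fosb had 0, 2 and 2 counts, so that no level could be measured at this depth, and Ier3 had 5 to 8 counts. Ier2, a short-lived nuclear regulator, stood at 29.7, 19.2 and 12.97 CPM, and Myc, the growth-promoting bHLH factor, at 4.71, 12.0 and 11.9 CPM, both overlapping the untreated livers.

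Related genes from lists around the same pathway were called in both directions at 1 h. Of 27 tested secreted and other early response genes, 8 rose and 3 fell, with the stress cytokine gene Gdf15 at 38.6 against 2.06 CPM and Rhob, a small GTPase gene, at 43.2 against 17.3. Of 28 feedback inhibitors of signalling, 7 rose and 2 fell, among them the MAP kinase phosphatase gene Dusp4, at 8.61 against 1.66 CPM, and the Btg2 relative Btg1, at 77.8 against 31.4. Of 24 EGR, NR4A, KLF and other early factors, 2 rose and 7 fell: Nfil3 was at 91.4 against 16.6 CPM and Id3 at 4.39 against 38.2. The median log2 fold changes of these lists were 0.38, 0.30 and -0.07, against -0.04 over all genes tested.

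Other gene groups moved in the same livers. Of 20 glucocorticoid receptor targets 10 rose and 1 fell, with Sgk1 at 116 against 13.7 CPM and Igfbp1 at 721 against 25.4. Of 15 clock and output genes 3 rose and 10 fell: Per3, an evening-phase repressor, was at 1.64 against 59.2 CPM, and Npas2, a morning-phase activator, at 11.6 against 0.0809. The summed clock genes ran from 367 to 428 CPM in the injected controls and from 759 to 1024 in the untreated wildtypes, with no overlap. The part of time of day in the difference of Fos, Egr1, Jun and Btg2 was not tested. The heat shock list, a sign of cell stress, had 3 of 12 genes higher and none lower, with Hsph1 at 101 against 42.8 CPM.

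After 3 weeks of Dex the set was higher more widely, and with other leading genes. In wildtype liver 8 of the 10 were called higher than in untreated wildtype liver, where 31.9% of all genes tested were called in either direction. In 9 of the 10, all but Myc, both Dex livers lay above all 5 untreated ones, which was so for 19.9% of the genes tested. This comparison shares its 5 untreated libraries with the one above.

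Atf3 had the largest log2 fold change of the 10. Its gene lies on chromosome 1 (191170296 to 191218039, minus strand). The Dex livers held 36.6 and 70.4 CPM and the untreated wildtypes 0.598, 2.30, 1.65, 0.583 and 0.861 CPM. The lower of the Dex livers was far above the highest untreated one, and the log2 fold change was 5.50 ± 0.83 (45.1-fold, adjusted p = 1.46e-05).

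Jun was at 83.0 and 129.6 CPM, against at most 11.7 CPM in untreated liver (log2 fold change 3.79 ± 0.43, adjusted p = 2.76e-07). Junb, which was not called at 1 h, was at 52.7 and 63.5 CPM, above the untreated maximum of 17.0 (2.66 ± 0.50, adjusted p = 0.00023). Btg2 reached 67.5 and 93.0 CPM (3.09 ± 0.39, adjusted p = 1.46e-06). All 3 were thus above every untreated wildtype liver and above every floxed control liver 1 h after Dex.

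Fos, in turn, was at 13.3 and 8.70 CPM after 3 weeks, inside the range of the 1 h livers, and its log2 fold change from untreated was 4.45 ± 0.87 (adjusted p = 0.000318). Egr1 was at 48.6 and 32.8 CPM, above every untreated wildtype liver and below all 3 injected controls (3.36 ± 0.95 from untreated, adjusted p = 0.00812). The call of Egr1 rested on wildtype Dex replicate 1: without it the adjusted p was 0.0613. Ier3 was at 4.23 and 5.95 CPM (2.87 ± 0.47, adjusted p = 4.58e-05).

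Ier2 had the smallest called change, at 28.8 and 30.96 CPM against 10.8 to 26.2 (0.90 ± 0.31, adjusted p = 0.0306), and that call was lost in 4 of 7 fits that left out 1 library (wildtype Dex replicate 1 or 2, or untreated replicate 3 or 4), with adjusted p up to 0.163. Fosb was at 1.15 and 0.576 CPM, above all untreated livers but not called (adjusted p = 0.094). Myc was at 16.2 and 42.7 CPM and overlapped the untreated livers. Only 2 wildtype Dex libraries exist, so that the higher level of each gene rests on a pair.

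Partners and neighbours in the pathway were also called after Dex. Of 14 AP-1 partners and small Maf factors 7 rose and 1 fell, with Jund, the constitutive JUN family member, at 97.5 against 15.2 CPM and Maff at 33.7 against 5.17. Of 24 early transcription factors 16 rose and 1 fell, among them Srf, which encodes the factor that binds many immediate early promoters, at 56.3 against 11.2 CPM (log2 fold change 2.34 ± 0.14), and Klf6 at 67.0 against 6.75. Of 28 feedback inhibitors 13 rose and none fell, with Dusp8 at 27.7 against 0.743 CPM. Of 27 secreted and other early response genes 15 rose and none fell, led by the growth arrest gene Gadd45b at 124 against 0.454 CPM and Gdf15 at 363 against 2.06. The upstream kinases and SRF and CREB partners gave 5 higher and 1 lower of 21. Their median log2 fold changes were 0.93, 1.57, 0.91, 1.72 and 0.23, against -0.04 over all genes.

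The Dex livers differed from untreated liver in cell type markers too. Of 8 B cell markers 6 were lower and of 8 T and NK cell markers 5 were lower, none higher, while 1 of 10 macrophage and 2 of 3 tested neutrophil markers were higher. In wildtype liver the summed adipocyte markers were at 72.8 and 119 CPM after Dex against 25.4 to 41.3 untreated, and the summed hepatocyte markers at 149285 and 159758 against 93983 to 134499 CPM, both without overlap. The part of these cells in the levels of the immediate early genes was not tested.

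After 3 weeks of Cort the wildtype livers gave 3 calls, Atf3, Jun and Ier3, all higher than untreated. This count was near the share of all genes called in either direction, 33.2%. The values within the group were far apart. Atf3 was at 20.8, 2.59, 1.90 and 2.81 CPM, so that 1 library stood below both wildtype Dex livers and far above the untreated ones, and the other 3 stood near the highest untreated one. Jun was at 33.4, 10.4, 13.2 and 14.03 CPM, and Ier3 at 3.28, 0.902, 0.808 and 0.833 CPM. The log2 fold changes were 2.56 ± 0.72 for Atf3 (adjusted p = 0.00779), 1.20 ± 0.37 for Jun (adjusted p = 0.0136) and 1.06 ± 0.41 for Ier3 (adjusted p = 0.0469). The call of Ier3 was lost in 5 of 9 fits that left out 1 library (wildtype Cort replicate 1, or untreated wildtype replicate 1, 2, 4 or 5), with adjusted p up to 0.592.

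Without wildtype Cort replicate 1 none of the 10 genes was called by edgeR, and Atf3 gave an adjusted p of 0.238. Only 1 gene, Myc, then had an unadjusted p under 0.05, and it was lower than untreated. Its log2 fold change ran from -2.10 to -0.85 over the fits that left out 1 library. Fos, at 5.39, 0.978, 0.5676 and 0.833 CPM, had its highest value in the same library, and it was not called (1.94 ± 0.78, adjusted p = 0.0572). Egr1 was at 12.9, 1.78, 2.69 and 2.08 CPM, and Junb at 24.2, 8.96, 5.89 and 6.53 CPM, again with replicate 1 alone on top. Myc (11.1, 2.95, 5.04 and 2.92 CPM) followed that library too, while Ier2 did not (10.9, 13.96, 14.9 and 11.7 CPM).

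The 8 Cort livers divide by a number that their deposited files carry, whose meaning is not stated, into 3 with low numbers (wildtype replicate 1 and E47KO replicates 1 and 2) and 5 with high numbers. For 6 of the 10 genes every low-numbered liver lay above every high-numbered one, which was so for 7.31% of the genes tested (15.1% did not overlap in either direction). The split was noticed in these data, so that the count is a description. Fos was at 2.25 to 12.5 CPM in the former and 0.5676 to 0.978 in the latter, a ratio of means of 8.32. The ratios were 7.58 for Atf3, 7.25 for Fosb, 6.46 for Egr1, 3.48 for Junb and 3.43 for Ier3.

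Jun (11.5 to 36.6 against 9.87 to 19.4 CPM), Btg2, Myc and Ier2 overlapped, and the mean of Ier2 was 0.903 times that of the high-numbered livers. Many other genes followed the same split. The summed skeletal muscle markers were at 0.0468 to 0.150 CPM in the low-numbered and at 149.6 to 206 CPM in the high-numbered livers, and the summed glucocorticoid receptor targets at 2881 to 3741 against 6785 to 12725 CPM. Hepatocyte markers were at 113558 to 121561 against 131388 to 167954 CPM, and macrophage markers at 62.1 to 101 against 112 to 155. Their part in the split of the immediate early genes was not tested.

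**Figure D2:**
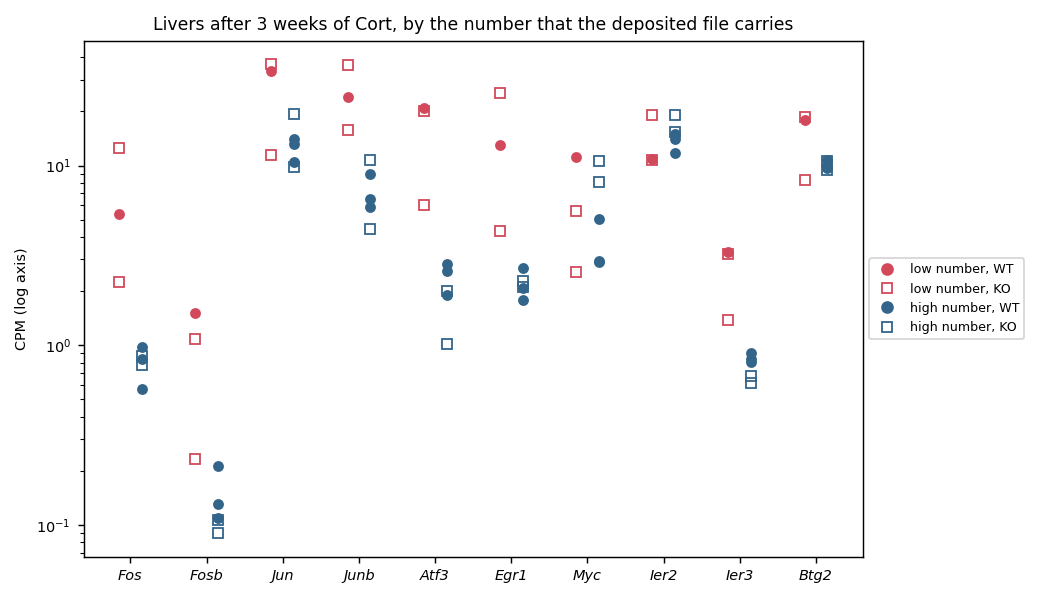
Levels of the 10 genes in the 8 livers after 3 weeks of Cort, in CPM on a log axis, with livers whose files carry a low number (3) and a high number (5) drawn apart and the genotypes marked. Fos, Fosb, Junb, Atf3, Egr1 and Ier3 do not overlap between the 2 sets, as is so for 15.1% of the genes tested, and Jun, Myc, Ier2 and Btg2 do.

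In E47KO livers 4 of the 10 genes were called after Cort. Fos was at 12.5, 2.25, 0.874 and 0.771 CPM in the 4 Cort livers, and the 6 untreated knockouts ran from 0.495 to 1.10 with a median of 0.817. Fos, Jun, Atf3 and Ier3 were higher, with log2 fold changes of 2.33 ± 0.69, 1.22 ± 0.35, 3.29 ± 0.70 and 1.00 ± 0.39. This count too was near the share of all genes called in either direction, 38.9%. Each of these 4 overlapped the untreated knockouts in range. The call of Ier3 (adjusted p = 0.0444) was lost in 7 of 10 fits that left out 1 library (Cort knockout replicate 1 or 2, or untreated knockout replicate 1, 2, 3, 5 or 6), with adjusted p up to 0.601. Without E47KO Cort replicate 1 only 1 call was made, that of Atf3 (lowest log2 fold change on leaving out a library 2.02, highest adjusted p 0.0209). With only the high-numbered Cort livers kept, a choice made after seeing the data, edgeR called none of the 10 genes in either genotype. At an unadjusted p under 0.05 there were then 3 in wildtypes (Jun, Atf3 and Myc) and 2 in knockouts (Jun and Egr1). By group mean Myc and Egr1 were lower than untreated and the others higher. Myc was at 2.95, 5.04 and 2.92 CPM in these wildtype Cort livers against an untreated wildtype mean of 15.6. Egr1 was at 2.29 and 2.10 CPM in these knockout Cort livers against an untreated knockout mean of 10.1. The log2 fold changes of Jun and Atf3 in wildtypes became 0.70 ± 0.31 (adjusted p = 0.088) and 1.04 ± 0.44 (adjusted p = 0.081). In knockouts those of Fos and Atf3 became 0.02 ± 0.61 and 1.03 ± 0.51 (adjusted p = 0.14 for Atf3), and those of Junb and Ier3 -0.17 and -0.19.

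The E47KO livers after 3 weeks of Dex gave 6 calls against untreated E47KO livers, all higher: Fos, Jun, Junb, Atf3, Ier2 and Ier3, where 37.8% of all genes were called. Atf3 again had the largest log2 fold change of the 10, at 27.0, 9.97 and 15.9 CPM against 0.307 to 1.47 (median 0.674), with a log2 fold change of 4.58 ± 0.74 (adjusted p = 2.82e-05). Jun, at 77.1, 56.2 and 80.6 CPM against 5.94 to 11.8 (median 7.87), gave 3.11 ± 0.37. Each of the 6 was higher in every Dex knockout than in every untreated one, which was so for 15.6% of the genes tested, and 5 kept their call without any single library, the exception being Ier2 without E47KO Dex replicate 1 (adjusted p = 0.0762).

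Egr1 and Btg2, called in wildtypes after Dex, were not called in knockouts. Egr1 was at 30.4, 27.9 and 16.2 CPM in the Dex knockouts, against an untreated range that reached 27.5 (median 7.22). Btg2 was at 39.4, 24.9 and 17.4 CPM against 7.93 to 30.9 (median 14.1; log2 fold change 0.77 ± 0.35, adjusted p = 0.0812). The wildtype and knockout comparisons use separate libraries throughout, and the difference between them was tested below.

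**Figure D3:**
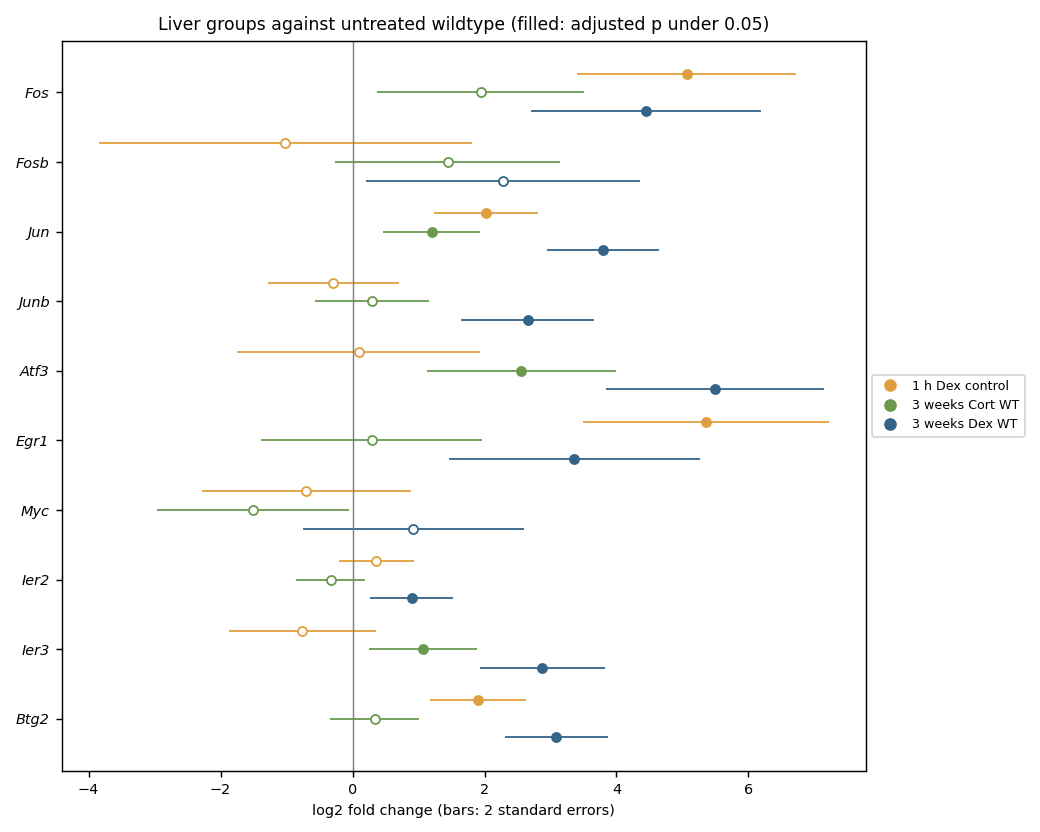
Log2 fold changes of the 10 genes against untreated wildtype liver, with bars of 2 SE, filled where called. The groups are the floxed controls 1 h after Dex and the wildtypes after 3 weeks of Cort and 3 weeks of Dex. At 1 h Fos and Egr1 lead (5.06 and 5.36), and after 3 weeks of Dex Atf3 leads (5.50).

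Set directly against the floxed controls 1 h after Dex, the wildtype livers after 3 weeks of Dex were higher in Jun, Junb, Atf3, Ier3 and Btg2, with log2 fold changes of 1.78 ± 0.48, 2.95 ± 0.60, 5.40 ± 1.04, 3.64 ± 0.61 and 1.18 ± 0.45 (29.2% of all genes called). The call of Btg2 (adjusted p = 0.0469) was lost whichever of the 5 libraries was left out, and that of Jun without wildtype Dex replicate 2. Fos was not called and overlapped. Egr1 was below all 3 injected livers in both Dex libraries without being called.

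The wildtype Cort livers gave lower Fos, Egr1 and Btg2 than the 1 h livers, with log2 fold changes of -3.12 ± 0.80, -5.07 ± 1.00 and -1.57 ± 0.38, and higher Atf3 and Ier3, at 2.47 ± 0.92 and 1.83 ± 0.56 (41.7% of all genes called). Atf3 was not called without wildtype Cort replicate 1 or without any 1 of the 3 floxed controls, nor Ier3 without Cort replicate 1. The same 3 injected libraries serve both of these comparisons, and the routes, doses and handling differ.

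None of the 10 genes was called between E47 mutants and controls in any of the 6 genotype comparisons by edgeR. At an unadjusted p under 0.05 there were 6 in Dex liver, 2 in untreated liver, 2 in muscle and 0 in each of the other 3. Over all genes tested, 505 of 13904 in untreated liver and 590 of 14962 in muscle were under it. DESeq2 called 1 of the 10, in Dex liver. The share of all genes called was itself 0.00752% in Dex liver (1 of 13300, and 3.08% at an unadjusted p under 0.05), 0.0274% in Cort liver, 0% 1 h after Dex, 0.0288% in untreated liver, 0% in WAT and 0.0134% in muscle.

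In Dex liver the 10 genes nevertheless all had lower means in the knockouts, where 49.4% of all genes tested were lower. Their median log2 fold change was -0.94, against 0.0034 over all genes. In 8 of the 10, all except Fos and Myc, the 3 knockouts lay below both wildtypes, which was so for 7.78% of the genes tested. The 6 with an unadjusted p under 0.05 were Jun, Junb, Atf3, Ier2, Ier3 and Btg2, and the adjusted p was 0.999 for each of the 10. All 10 were measured in the same 5 livers, so that these counts are not 10 separate observations.

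Btg2, for example, was at 39.4, 24.9 and 17.4 CPM in the knockouts and at 67.5 and 93.0 CPM in the wildtypes, a log2 fold change of -1.55 ± 0.33 (unadjusted p = 0.0027). Atf3 was at 27.0, 9.97 and 15.9 CPM against 36.6 and 70.4 CPM (-1.59 ± 0.43, unadjusted p = 0.00844). Junb was at 37.7, 38.99 and 35.2 CPM against 52.7 and 63.5 CPM (-0.63 ± 0.13, unadjusted p = 0.00255). Ier3 was at 2.44, 2.10 and 1.62 CPM against 4.23 and 5.95 CPM (-1.29 ± 0.29, unadjusted p = 0.00326).

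The gene that DESeq2 called in this comparison was Btg2 (adjusted p = 0.00857), and edgeR without the filter on low counts called 2, Atf3 (adjusted p = 0.0109) and Btg2 (adjusted p = 0.00275). Other sums differed between the genotypes in the same 5 livers. The 10 genes together were at 197 to 266 CPM in knockouts and 352 to 478 in wildtypes, the 8 B cell markers at 0.716 to 0.981 against 3.50 to 8.83 CPM, and the clock genes at 496 to 609 against 639 to 659 CPM. The share of counted reads in no gene was 31.1% to 32.8% in knockouts and 33.0% to 36.8% in wildtypes, also without overlap. The 20 glucocorticoid receptor targets overlapped, at 10106 to 14607 against 14105 to 17856 CPM. Adipocyte markers overlapped too, at 25.3 to 110.5 against 72.8 to 119 CPM. Their part in the lower levels was not tested.

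**Figure D4:**
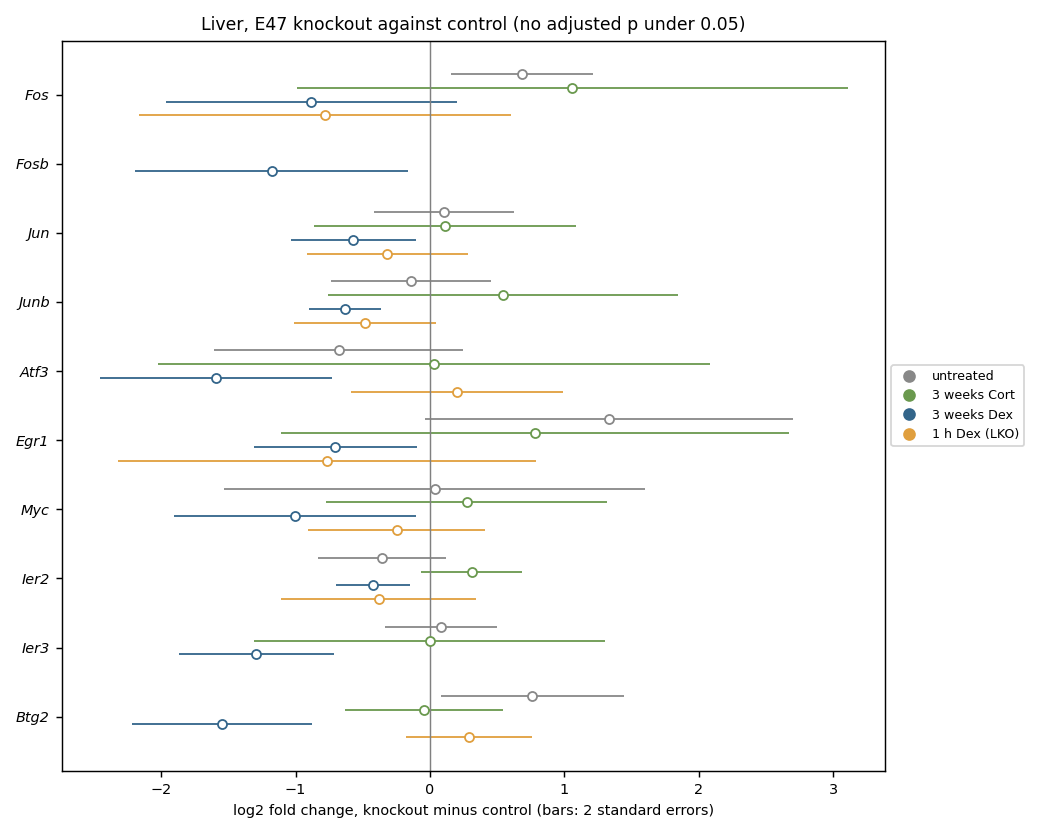
Log2 fold changes of E47 mutants over controls for the 10 genes in the 4 liver experiments, with bars of 2 SE. No point is drawn where a gene did not pass the filter on low counts. In Dex liver all 10 lie below 0 (median -0.94), while in the other livers they lie on both sides.

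In untreated liver Fos was at 0.495 to 1.10 CPM in knockouts (median 0.817) and 0.327 to 0.667 in wildtypes (median 0.560), with a log2 fold change of 0.68 ± 0.26 (adjusted p = 0.965). Btg2 was at 7.93 to 30.9 CPM (median 14.1) against 6.11 to 13.3 (median 9.95), at 0.76 ± 0.34 (adjusted p = 0.965). The groups of both genes overlapped, and their direction was the opposite of that in Dex liver.

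At 1 h after Dex, Egr1 was at 211, 48.8 and 24.9 CPM in AlbCreE47KO livers and at 282, 150.4 and 57.2 CPM in the floxed controls, and Fos at 16.2, 5.15 and 7.67 against 29.9, 17.8 and 2.97 CPM. Both pairs of groups overlapped, and the spread within each group was several times its lowest value. Their log2 fold changes were -0.77 ± 0.78 and -0.78 ± 0.69, with intervals of 2 SE from -2.32 to 0.79 and from -2.17 to 0.61. Differences of that size were not detectable with these 6 libraries. Ier3 had 7 to 14 counts in the AlbCreE47KO livers and 5 to 8 in the controls and was too low to be tested. After Cort, 9 genes were tested and each overlapped between genotypes, where 6.36% of the genes tested did not. All 10 overlapped in untreated liver (0.446% of the genes tested did not) and in WAT (32.6% did not). Fosb was called lower in knockout WAT when E47KO WAT replicate 3 was left out, which leaves a single knockout library. In muscle only Myc was separate, where 15.6% of the genes tested were, at 2.47, 1.99 and 2.87 CPM in knockouts and 3.83 and 3.78 CPM in wildtypes (-0.62 ± 0.22, adjusted p = 1.00).

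The difference between genotype effects was tested directly, and none of the 10 was called in any of 5 such tests by edgeR or DESeq2. The background share was 0.00616% for Cort against untreated liver, for Dex against untreated and for Dex against Cort, and 0% for WAT or muscle against liver. The gene nearest to a call was Btg2, whose genotype effect after Dex was lower than that in untreated liver by 2.31 ± 0.54 on the log2 scale (unadjusted p = 0.00024, adjusted p = 0.649). At an unadjusted p under 0.05 in edgeR there were 0 genes for Cort against untreated, 2 for Dex against untreated (Btg2 and Ier3) and 1 for Dex against Cort (Btg2). Of the 16227 genes tested, 1118, 672 and 478 in turn were under it. There were 4 for WAT against liver (Atf3, Ier2, Ier3 and Btg2) and 2 for muscle against liver (Atf3 and Btg2), in each case with a genotype effect above that in Dex liver. Of the 18113 genes tested there, 592 and 834 in turn were under it. All of these tests except Cort against untreated use the same Dex livers, so that a gene recurring among them is not a separate observation each time. Some mice gave both liver and muscle, which was not modelled.

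The tissues of Dex-treated mice held the genes at different levels, as they did most genes tested. Between WAT and liver 7 of the 10 were called, close to the share of all genes called, 75.4%. Fosb was at 7.54, 10.7, 3.43 and 20.3 CPM in the 4 WAT libraries and at 0.254 to 1.15 in the 5 Dex livers, with a log2 fold change of 4.21 ± 0.55. Ier3, at 19.2 to 42.1 against 1.62 to 5.95 CPM, gave 3.43 ± 0.26, and Fos, at 16.4 to 53.7 against 2.14 to 13.3 CPM, gave 1.97 ± 0.42.

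These 3 genes were separate between the tissues, all higher in WAT, as were 36.6% of the genes tested, and Btg2 was called higher with overlap (0.88 ± 0.27). Junb (-1.84 ± 0.35), Ier2 (-0.92 ± 0.12) and Jun (-0.66 ± 0.19) were lower in WAT, Junb and Ier2 without overlap. The share of all genes lower in every WAT library was not counted. The median of all genes was 0.19 in this comparison, and with library totals in place of TMM it was 0.98, where the value of Jun turned to 0.14 and that of Ier2 became -0.13 and lost its call (adjusted p = 0.345).

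Between muscle and liver 7 were called as well, again close to the share of all genes (76.4%), and 6 of them were lower in muscle. Myc was at 1.99 to 3.83 CPM in muscle and 8.59 to 42.7 in Dex liver (-2.63 ± 0.28), Ier2 at 4.08 to 5.37 against 20.2 to 30.96 CPM (-2.35 ± 0.12) and Junb at 3.91 to 15.1 against 35.2 to 63.5 CPM (-2.33 ± 0.34). The tissues did not overlap in any of these 3, nor in Egr1, and 33.1% of the genes tested were likewise lower in every muscle library. Egr1 (-1.50 ± 0.31), Atf3 (-1.05 ± 0.30) and Jun (-0.82 ± 0.18) were lower too, and Ier3 was higher (1.61 ± 0.25). The median of all genes was 0.11. Some mice gave both liver and muscle, which the fit did not model, so that its libraries are not all from separate animals.

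**Figure D5:**
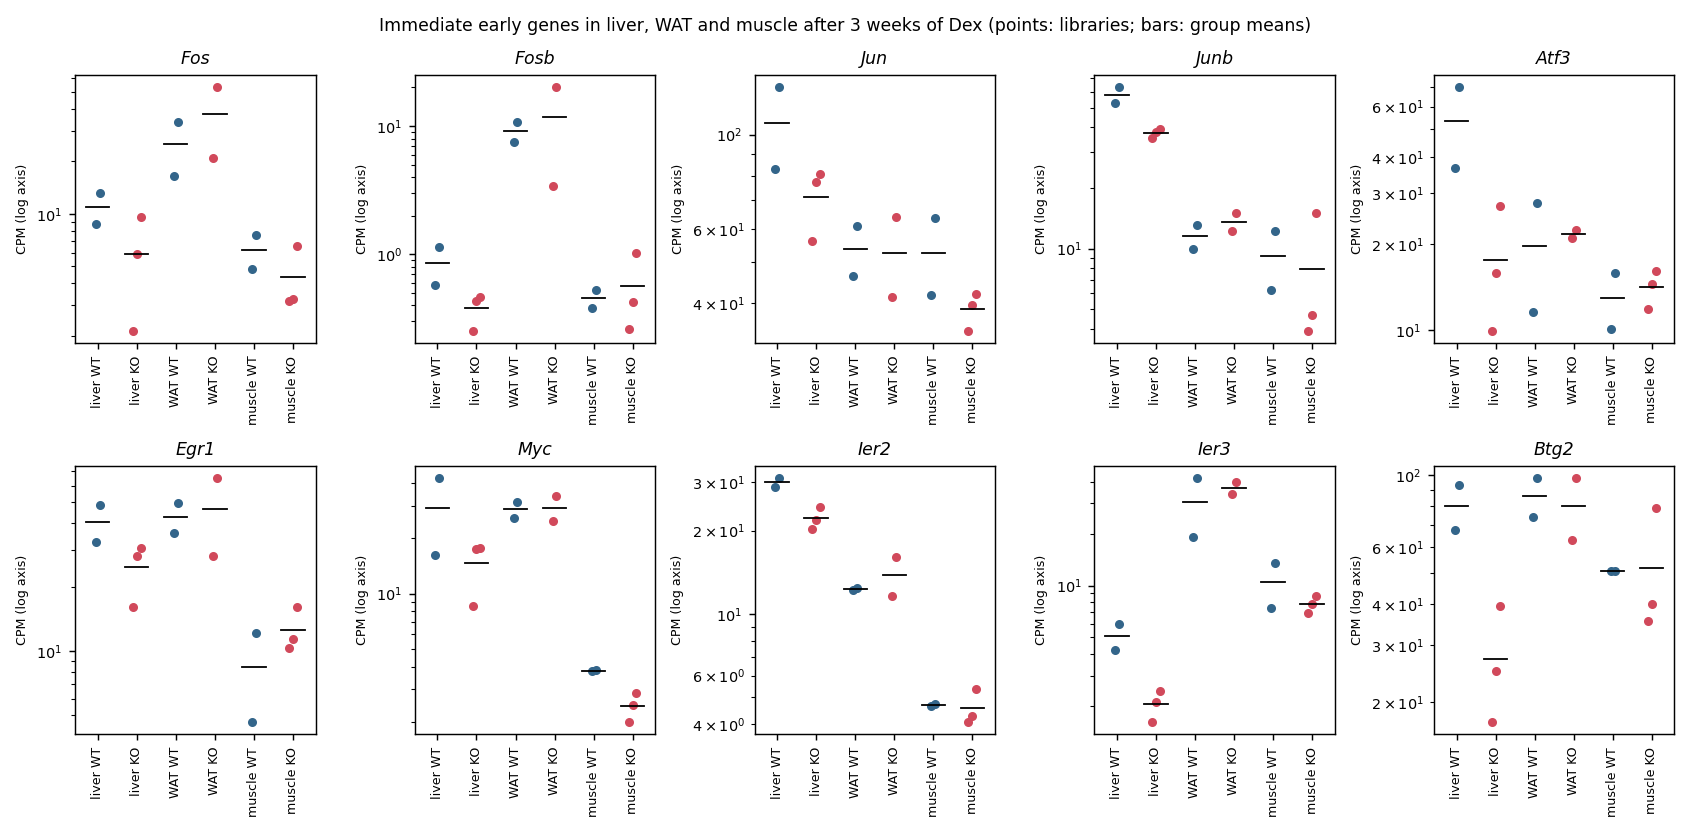
Levels of the 10 genes in liver, WAT and muscle libraries after 3 weeks of Dex, in CPM on a log axis, with genotypes marked. Fosb, Ier3 and Fos are highest in WAT (Fosb at 3.43 to 20.3 CPM), and Myc and Ier2 are lowest in muscle.

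The order of levels over the 12 groups differed from gene to gene. By group means Jun, Junb, Atf3, Ier2 and Myc were highest in wildtype Dex liver, Egr1 in the floxed controls 1 h after Dex, Fos, Fosb and Ier3 in E47KO WAT, and Btg2 in wildtype WAT. For Jun, Junb, Atf3 and Ier2 the leading group was separate from the next one in the order, while for Fos, Egr1, Myc and Btg2 it was not. The leading group of Ier2 (from 28.8 CPM) still overlapped the floxed controls 1 h after Dex (up to 29.7 CPM). Per length, Jun led in wildtype Dex liver at a mean of 33.3 RPKM with Btg2 at 29.2 and Junb at 25.3, and in wildtype WAT Btg2 led at 31.3 with Ier3 at 27.1. In wildtype muscle Btg2 was at 18.5 and Jun at 16.5. Fosb was the lowest of the 10 in every group.

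Within groups the genes did not form 1 block. Over the 30 livers, with each group's mean subtracted from log2 CPM, Atf3 had a Pearson correlation of 0.85 with the mean of the other 9 genes, Junb of 0.77, Egr1 of 0.76 and Fos of 0.75. Ier2 stood at 0.31 and Myc at 0.01. Outside the set, the 5 genes most like the mean of the 10 on this scale were Tns2 (Pearson 0.82, Spearman 0.83), Nfkb2 (0.80 and 0.70), Zbtb12 (0.78 and 0.64), Ehmt2 (0.76 and 0.71) and Bcl3 (0.75 and 0.58), out of 16227 genes compared. Tns2 encodes an adhesion protein, and Nfkb2 and Bcl3 encode members of the NF-kB pathway. These are descriptions over livers that share libraries, depth and experiment, and the split of the Cort livers is among the differences they reflect.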

How the data were processed

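Per the labels RNA was extracted with Qiazol (3 weeks of treatment) or RNeasy (1 h Dex), with no kit given for untreated liver, while the study's methods divide the kits by tissue (RNeasy for liver, Qiazol before RNeasy for muscle and fat). The authors made polyA libraries with TruSeq kits, unstranded for the 14 libraries after 3 weeks of Dex. Per the labels, reads were mapped to mm10 with STAR 2.4.2a, and HTSeq and DESeq2 are also named. The deposited values are raw whole-number counts per gene and sample, for 46078 genes in the Dex files and 45706 in the others. The unstranded counts were used throughout. Cort libraries are labelled stranded, but each strand holds about the same share of their reads.

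Counts of the 45706 shared genes were fitted with edgeR 4.0.16 (R 4.3.3; TMM, filterByExpr, quasi-likelihood F-test, two-sided). Genotype comparisons used the libraries of 1 experiment, treatment comparisons all 30 livers, and tissue comparisons the libraries after 3 weeks of Dex. SE is the absolute log2 fold change divided by the square root of F. P-values were Benjamini-Hochberg adjusted over all genes tested, at a threshold of 0.05. Levels are CPM, or RPKM with the exon union length of GENCODE annotation. DESeq2 1.42.0 was an alternative, and the script was tested on simulated counts. Of 53 replicate pairs none was a duplicate (chi-square per degree of freedom at least 15.9). The members and gene lists were chosen with earlier results of these data known. From each related list, up to 3 called genes with the smallest p were eligible to be named. Dexamethasone and corticosterone groups have no vehicle controls here. Figures were drawn with matplotlib.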

Additional observations from a re-analysis of the deposited data

Results flagged for a closer look

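In groups of 4 to 10 libraries, the highest or lowest value was compared with its nearest neighbour by Dixon's criterion at the 95% level. Of 40 combinations of gene and group, 12 were past it, and 11 of the 12 were in the Cort groups. The criterion's rate of about 1 in 20 holds for independent, normally spread values. The genes share libraries and CPM need not be normally spread, so that the count cannot be set against that rate. Wildtype Cort replicate 1 stood above its group for Fos at 5.39 CPM, for Fosb at 1.502 CPM, for Jun at 33.4 CPM and for Junb at 24.2 CPM. The same library did so for Atf3 at 20.8 CPM, for Egr1 at 12.9 CPM, for Ier3 at 3.28 CPM and for Btg2 at 17.9 CPM. These 8 values come from 1 library and are a single observation. E47KO Cort replicate 1 stood above its group for Fos at 12.5 CPM, for Fosb at 1.08 CPM and for Egr1 at 25.2 CPM. In untreated liver only Fosb was past the criterion, in E47KO replicate 1 at 0.514 CPM, which is 14 counts.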

How the results depend on the processing

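Of the values of single genes, 608 were unchanged under other settings. They comprise fold changes that kept their direction and side of the threshold, and mean levels that moved by at most 1 SD with plain library totals. Of the fold changes, 22 lost and 11 gained the threshold and 3 reversed, and 24 levels moved by over 1 SD. With 1 library left out, 599 were the same, 33 lost the threshold and 9 gained it. The genotype count in Dex liver went from 0 to 1 with DESeq2 (Btg2) and to 2 without the filter on low counts (Atf3 and Btg2). With only the high-numbered Cort livers, chosen after seeing the data, the counts against untreated liver went from 3 to 0 in wildtypes and from 4 to 0 in knockouts, and in knockouts Junb reversed to -0.17 and Ier3 to -0.19. Without normalization factors, also added after seeing the data, Jun in WAT against liver reversed to 0.14 and Ier2 lost its call at -0.13. The causes were not tested.

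With 1 library left out, the counts ran from 0 to 4 for wildtype Cort against untreated (0 without wildtype Cort replicate 1), from 1 to 5 for E47KO Cort (1 without E47KO Cort replicate 1), from 3 to 4 for 3 weeks of Dex against 1 h (3 without wildtype Dex replicate 2) and from 0 to 1 for the genotypes in WAT (1, Fosb, without E47KO WAT replicate 3). They ran from 4 to 4 for 1 h Dex, 6 to 8 for wildtype Dex, 5 to 7 for E47KO Dex and 4 to 5 for Cort against 1 h, from 7 to 8 for WAT against liver and from 7 to 7 for muscle, and stayed at 0 for the other 5 genotype comparisons and the 5 differences between them. A lone remaining sample is assumed to vary like the other groups.

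With the replicate number as a block (replicate block), the counts of calls were 2 for wildtype Cort, 3 for E47KO Cort, 7 for wildtype Dex, 5 for E47KO Dex and 5 for Dex against 1 h, and the genotype counts were 0. Same-numbered libraries of the 2 genotypes did not deviate together in every pair (correlations from -0.485 to 0.748). These correlations compare knockouts with controls inside an experiment only, and in groups of 2 libraries the deviations mirror each other. They cannot show whether the numbers pair samples, within an experiment or between tissues. Untreated libraries carry 2 ranges of library numbers, 3 earlier (E47KO replicate 1 and wildtype replicates 1 and 2) and 8 later. Their deviations from the group means correlated at 0.748 and 0.561 between the earlier knockout and the earlier wildtypes. With only the later ones, 30 of 32 values of single genes kept their call, and Ier3 lost it after Cort in wildtypes and in knockouts. In WAT the block could not be fitted because the groups share only number 2. Counting by strand or RLE scaling changed no count by over 1.5 times.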

Other observations

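Myc fell into separate levels in untreated liver. E47KO replicates 2, 3 and 4 were at 22.2, 28.9 and 32.7 CPM and wildtype replicates 2 and 4 at 38.6 and 26.9 CPM. The other 6 libraries, 3 of each genotype, were at 3.31 to 5.38 CPM, with none between. The 6 livers 1 h after Dex were at 4.71 to 12.0 CPM, the lowest inside the lower level and the other 5 between the levels. The labels give no division of untreated mice that matches it.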
